A study of Homo sapiens with 8 samples.

Results

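H3K27ac, an acetylation of histone H3 found at active promoters and enhancers, was examined at 7 genes, namely the GATA factors GATA2, GATA3, GATA4, GATA5 and GATA6 and the FOG cofactors ZFPM1 (FOG1) and ZFPM2 (FOG2). The genes were chosen by name out of 20033 protein-coding genes, and every H3K27ac peak was taken that lay in the gene or up to 50 kb from it (the window of the gene). The cells were pancreatic progenitors (PPs) derived from the established human embryonic stem cell line MEL1, which the study's methods name as the INS GFP/W reporter line, so every library carried that allele. All PPs were grown in EF6 medium (DMEM and B27 with bFGF at 10 ng/ml, EGF at 50 ng/ml and the TGFβ inhibitor 616452 at 10 μM). For 7 days they received DMSO, the solvent, or I-BET151 at 1 μM, a compound that blocks the bromodomains of BET proteins. Each treatment had 2 H3K27ac libraries. The labels do not say whether these came from separate cultures, so a p-value measures only the spread between libraries, which may be technical. All PPs came from 1 cell line and whole dishes were harvested, so fewer acetylated cells and less acetylation per cell cannot be told apart.

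GATA factors bind the core sequence GATA through a pair of zinc fingers. GATA4 and GATA6 are endoderm factors needed for growth of the human pancreas, GATA5 is their close relative in gut and heart, and GATA2 and GATA3 are best known from blood, trophoblast, neurons and epithelia. FOG proteins do not bind DNA in this role. They bind the amino-terminal zinc finger of GATA factors and bring in corepressors such as the NuRD complex and CtBP.

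The label of the cells was checked against the starts of marker genes. A peak lay within 1 kb of an annotated start in all 4 libraries for 5 of 6 PP markers (PDX1, NKX6-1, SOX9, FOXA2 and ONECUT1) and in none for PTF1A. No library had such a peak for the markers of pluripotent, endocrine, mesenchymal or cardiac, blood or hepatic cells that were listed. Of 4 trophoblast markers, TFAP2A and ELF5 each had a peak in 1 DMSO and 1 I-BET151 library, and the intestinal marker CDX2 had one in all 4 libraries. No marker start separated the treatments. The libraries held 7.76 to 9.84 M (mega) ChIP reads as worked out from the peak lists, and 12312 to 14248 peaks.

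The 7 windows held 156 peaks, which merged into 44 of the 15752 regions of the genome. A library could list more than 1 peak in a region. The length of a region is then the sum of its peaks, without the gaps between them. In DMSO replicates 1 and 2 the windows held 40 and 44 peaks, and in I-BET151 replicates 1 and 2 they held 34 and 38. Acetylation was distributed very unevenly over the family. ZFPM1 had 20 regions, GATA4 had 11, GATA5 had 5, GATA6 had 4, GATA2 had 2, and GATA3 and ZFPM2 had 1 each. Some of these lay in, at or beside neighbouring genes. The single region of ZFPM2 was the promoter of a neighbouring gene, 4 regions of the GATA4 window lay in NEIL2 and FDFT1, and 2 regions of the ZFPM1 window lay beside or at the start of ZC3H18.

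To show what DNA lay under these peaks, the 200 bp around the summit are printed for some regions. At these the libraries of the 2 treatments did not overlap in summit reads or in being listed. Further regions met this rule but are not printed, including all of those of GATA4 and those listed under I-BET151 only. The printed stretches are read from hg38 on the plus strand, 5′ to 3′, with each CpG dinucleotide in capitals. They were chosen outside untranslated regions. Intronic refers to the summit base, and a stretch may run into an exon.
GATA3 region in DMSO libraries only, chr10:8050390-8050589: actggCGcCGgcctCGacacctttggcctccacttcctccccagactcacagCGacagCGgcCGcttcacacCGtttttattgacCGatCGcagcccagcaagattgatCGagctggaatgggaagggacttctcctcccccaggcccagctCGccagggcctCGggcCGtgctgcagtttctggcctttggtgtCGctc
GATA5 upstream region in DMSO libraries only, chr20:62485552-62485751: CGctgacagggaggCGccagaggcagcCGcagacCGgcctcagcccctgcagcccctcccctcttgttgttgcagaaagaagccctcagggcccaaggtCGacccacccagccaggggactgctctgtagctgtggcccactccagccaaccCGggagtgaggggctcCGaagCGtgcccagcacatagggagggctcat
GATA5 farthest upstream region in DMSO libraries only, chr20:62489422-62489621: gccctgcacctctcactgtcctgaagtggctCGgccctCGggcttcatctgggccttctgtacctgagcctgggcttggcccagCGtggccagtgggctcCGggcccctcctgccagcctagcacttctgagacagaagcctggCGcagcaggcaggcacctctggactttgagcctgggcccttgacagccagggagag
GATA2 region with lower signal under I-BET151, chr3:128489282-128489481: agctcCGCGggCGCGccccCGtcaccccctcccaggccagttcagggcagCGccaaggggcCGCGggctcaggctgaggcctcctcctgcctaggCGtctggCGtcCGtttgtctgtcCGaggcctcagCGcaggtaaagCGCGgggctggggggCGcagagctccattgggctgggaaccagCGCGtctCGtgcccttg
GATA6 upstream region with higher signal under I-BET151, chr18:22165603-22165802: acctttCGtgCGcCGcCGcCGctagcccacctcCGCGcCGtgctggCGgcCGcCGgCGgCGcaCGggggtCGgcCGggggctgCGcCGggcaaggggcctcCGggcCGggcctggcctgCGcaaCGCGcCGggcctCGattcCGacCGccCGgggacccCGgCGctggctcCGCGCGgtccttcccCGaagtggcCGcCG
GATA6 intronic region with higher signal under I-BET151, chr18:22176796-22176995: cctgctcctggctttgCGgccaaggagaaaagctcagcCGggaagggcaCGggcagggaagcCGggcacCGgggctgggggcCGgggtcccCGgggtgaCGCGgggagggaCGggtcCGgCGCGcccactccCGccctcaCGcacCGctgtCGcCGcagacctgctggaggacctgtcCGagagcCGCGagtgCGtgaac
ZFPM1 intronic region with higher signal under I-BET151, chr16:88514133-88514332: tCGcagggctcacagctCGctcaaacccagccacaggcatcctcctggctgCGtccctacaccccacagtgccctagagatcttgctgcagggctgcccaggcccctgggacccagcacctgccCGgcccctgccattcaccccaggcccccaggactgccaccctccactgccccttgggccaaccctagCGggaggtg

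These stretches differed widely in CpG number. The GATA6 upstream summit held 36 CpGs in 200 bp and the GATA6 intronic summit held 22. By contrast, the GATA5 upstream summits held 8 and 5, and the ZFPM1 intronic summit held 5. The GATA2 and GATA3 summits lay between, with 19 and 14. Over all regions of the genome, those with a peak in every library had a median of 20 CpGs in 200 bp, and those listed in the DMSO libraries but not under I-BET151 had a median of 10. In the 7 windows the gap was smaller, with medians of 14.5 over 26 regions and 11 over 4. The 3 regions listed under I-BET151 only had a median of 15. None of the 7 printed stretches held a GATA motif, searched on both strands as GATA preceded by A or T and followed by A or G. Of the 44 regions in the windows 2 held 1 of these motifs (4.55%), against 4.25% of all 15752 regions. These were 1 region of GATA4 and 1 of ZFPM1, and both had peaks in the I-BET151 libraries only. A match to a motif is a description of the sequence and not of binding.

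Compared with DMSO, the members fell into 3 patterns of total acetylated length. GATA4, ZFPM1 and ZFPM2 had more covered length in both I-BET151 libraries than in either DMSO library, GATA2, GATA3 and GATA5 had less in both, and for GATA6 the libraries overlapped. Thus 3 of 7 members lay above, where 12.5% of the 15190 protein-coding genes with a peak in their window did so, and 3 of 7 lay below, where 44.4% of these genes did. For ZFPM2 the length came only from the promoter of the neighbouring gene LRP12. With 2 libraries against 2, a two-sided exact permutation test cannot give a p below 0.333. It gave 0.333 for each of these 6 members and 0.667 for GATA6, so no difference in length passed 0.05 by this test.

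**Figure D1:**
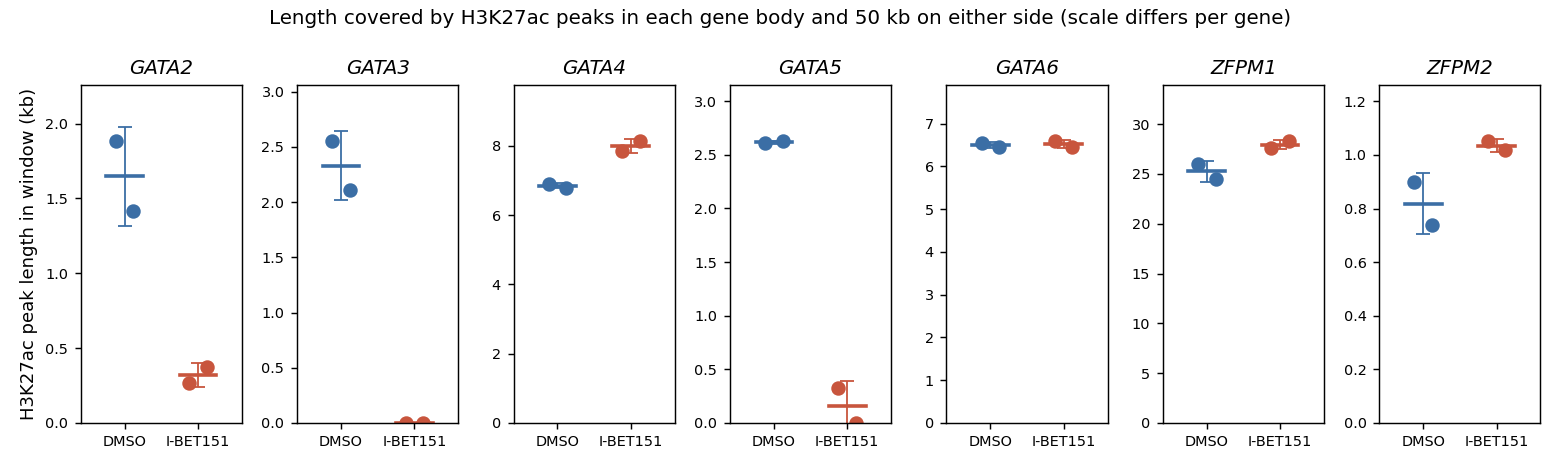
Length covered by H3K27ac peaks (kb, y axis, with its own scale for each gene) in the window of each of the 7 genes under DMSO (blue) and I-BET151 (red). Points are the 2 libraries of a treatment, thick lines their means and thin bars the SD, cut off at 0. GATA2, GATA3 and GATA5 lie lower under I-BET151 and GATA4 and ZFPM1 higher, while the 4 GATA6 values lie between 6.45 and 6.59 kb.

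GATA6, the endoderm factor, had the same acetylated regions under both treatments. Its gene lies on the plus strand of chromosome 18 (22169589 to 22202528, hg38, GENCODE 44). Peaks covered 6.55 and 6.45 kb in DMSO replicates 1 and 2 and 6.59 and 6.46 kb in I-BET151 replicates 1 and 2. The means were 6.50 ± 0.0742 kb under DMSO, against 6.52 ± 0.0926 kb under I-BET151 (SD, n = 2 each), a difference of 0.025 kb, which is smaller than either SD. All 4 regions were listed in every library.

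The GATA6 promoter was covered by 1 wide region of about the same length in every library. It held both annotated starts of GATA6 and the start of the antisense lncRNA gene GATA6-AS1, and antisense transcription cannot be told apart in ChIP. Its length was 3728 and 3714 bp under DMSO, against 3772 and 3745 bp under I-BET151. The height of its summit, the ChIP reads there divided by the depth of the library in M (RPM), was 49.0 and 42.1 RPM under DMSO, against 52.3 and 53.0 under I-BET151. Fold enrichment, which divides by the local input, ran the other way, from 10.0 and 12.4 under DMSO to 8.00 and 9.49 under I-BET151. The local input level at these summits was 14 and 8.89 reads under DMSO, against 19 and 14 reads under I-BET151. These values were not read at 1 position. The DMSO summits lay at 22169757 and 22169750, and the I-BET151 summits at 22170382 and 22171868, further into the gene, so RPM, fold and input at this promoter compare different points of the same region. Of the 26 regions listed in all 4 libraries, 24 had their summits within 187 bp of each other, and the exceptions were this region and 1 of ZFPM1.

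Upstream of GATA6, both measures gave the same order. The region centred 3887 bp before the first start had summit heights of 44 and 37.4 RPM under DMSO, against 47.2 and 47.0 under I-BET151. Its fold was 7.48 and 9.82 under DMSO, against 13.9 and 12.1 under I-BET151, although it was slightly shorter under I-BET151 (1642 and 1593 bp against 1667 and 1648 bp). Its CpG-rich summit is the densest of the printed sequences. The region 2368 bp upstream did not separate the treatments, with 34.5 and 32.2 RPM under DMSO, against 33.3 and 34.0 under I-BET151. It had the highest GATA6 fold of any library, 14.9 in DMSO replicate 2.

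In the GATA6 gene body, a region with its summit in an intron, 7306 bp after the first start, was higher in both I-BET151 libraries by every measure. Its summit held 16.6 and 21.1 RPM under DMSO, against 25.5 and 27 under I-BET151. The log2 ratio of the means was 0.48. Its fold was 3.43 in DMSO replicate 1, well below the 8.88 of DMSO replicate 2, and 9.82 and 10.1 under I-BET151. The input level at this region was 14 reads in DMSO replicate 1 and 6 in DMSO replicate 2. Its length was 697 and 656 bp under DMSO, against 726 and 701 bp under I-BET151.

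GATA4, the partner of GATA6 in endoderm, was covered over a greater length in both I-BET151 libraries, and the added length lay inside the gene. It lies on the plus strand of chromosome 8 (11676959 to 11760002). Peaks in its window covered 6.89 and 6.80 kb under DMSO, against 7.85 and 8.13 kb under I-BET151. The means were 6.84 ± 0.0700 kb and 7.99 ± 0.199 kb (SD, n = 2 each), a difference of 1.15 kb or 16.7%. The 7 regions in the gene body covered 5.03 and 4.97 kb under DMSO, against 5.99 and 6.22 kb under I-BET151, whereas the 4 regions in the neighbouring genes NEIL2 and FDFT1 covered 1.87 and 1.83 kb under DMSO, against 1.86 and 1.91 kb under I-BET151. The difference of 1.11 kb in the gene body was therefore nearly all of the 1.15 kb.

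The GATA4 starts form 3 acetylated groups. The region at the first start was short and alike in all libraries, with 332 and 347 bp under DMSO, against 409 and 332 bp under I-BET151, and with 9.67, 8.94, 9.15 and 8.58 RPM in the order of DMSO 1, DMSO 2, I-BET151 1 and I-BET151 2. A second start, 15667 bp further on, had a peak in both I-BET151 libraries (450 and 495 bp, fold 3.15 and 2.91) and in neither DMSO library. The main cluster of 4 starts, 27192 to 27263 bp into the gene, lay in a region of 1835 and 1813 bp under DMSO, against 1825 and 1750 bp under I-BET151. Its summits were the highest of the gene in RPM in each library with resolved reads, although the region over a coding exon described next was longer and the first start had a higher fold in DMSO replicate 2 (9.34). The cluster summit held 44.2 and 38.7 RPM under DMSO, against 50.5 and 52.9 under I-BET151. Its fold was 6.45 and 7.07 under DMSO, against 9.66 and 11.8 under I-BET151, so both measures were higher in both I-BET151 libraries while the lengths overlapped. A region at 2585 bp, between the first and second starts, was listed in every library but I-BET151 replicate 1. The last annotated start, 79534 bp into the gene, lay in no peak.

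The regions flanking this GATA4 cluster ran in the same direction. At 25792 bp, a region of 379 and 364 bp under DMSO was 717 and 649 bp long under I-BET151, and its summit height was 14.7 and 14.2 against 19.6 and 20.7 RPM. The region over a coding exon, 31707 bp into the gene, had folds of 5.46 and 6.88 under DMSO, against 8.05 and 9.0 under I-BET151. Its summit held 30.3 and 32.9 RPM under DMSO, against 50.3 in I-BET151 replicate 2, and the reads of I-BET151 replicate 1 had no single solution. Just beyond it, an intronic region 33304 bp into the gene had a peak in both I-BET151 libraries (323 and 357 bp, fold 7.22 and 4.61) and in neither DMSO library. This last summit held 1 of the GATA motifs.

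Of the neighbours in the GATA4 window, FDFT1, the gene of squalene synthase, had the highest fold of the window, 20.4 in I-BET151 replicate 2 at its promoter. The input level behind that value was 5.23 reads, against 12 to 14 reads in the other 3 libraries, and the summit heights of that region were 42.3 and 39.6 RPM under DMSO, against 44.6 and 47.3 under I-BET151. A high fold there therefore came with a low input.

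ZFPM1, which encodes FOG1, had by far the longest acetylated stretch of the 7 genes. It lies on the plus strand of chromosome 16 (88453280 to 88537031). Peaks covered 26.0 and 24.5 kb of its window under DMSO, against 27.6 and 28.3 kb under I-BET151. The means were 25.3 ± 1.07 kb and 27.9 ± 0.480 kb (SD, n = 2 each), a difference of 2.68 kb or 10.6%. Of its 20 regions, 12 had peaks in all 4 libraries, 1 in the I-BET151 libraries only and 7 in some other combination. The 2 regions beside or at the ZC3H18 start, 116619 and 117312 bp from the ZFPM1 start, overlapped between treatments in length, fold and RPM.

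At the ZFPM1 promoter, peaks in a region with all 4 annotated starts covered 2814 and 2805 bp under DMSO, against 2995 and 2974 bp under I-BET151. Each DMSO library listed 2 peaks there and each I-BET151 library 1. End to end, the peaks ran 88453247 to 88456231 and 88453250 to 88456205 under DMSO, against 88453241 to 88456235 and 88453266 to 88456239 under I-BET151. The difference was therefore mainly the gap between the 2 DMSO peaks. Its summit heights overlapped, with 48.7 and 39.3 RPM under DMSO, against 43.6 and 49.6 under I-BET151. Most of the acetylation lay elsewhere, in a cluster of 16 regions spanning 40.0 kb in the second part of the gene, from 35906 to 73997 bp after the start. Peaks in this cluster covered 22.3 and 20.5 kb under DMSO, against 23.8 and 24.4 kb under I-BET151. The difference was 2.69 kb, against 2.68 kb for the window. Much of it lay in gaps between neighbouring DMSO peaks that were covered under I-BET151, as described below. Outside the cluster, differences of opposite direction nearly cancelled. The promoter region had more covered length under I-BET151, where 1 peak spanned the gap. A region of 360 bp, 400 bp before the first start, was listed in DMSO replicate 2 only.

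Within the ZFPM1 cluster the regions were not all alike. In the widest, 45715 bp from the start, peaks covered 6136 and 5762 bp under DMSO, against 7165 and 6881 bp under I-BET151. These lengths sum 2 and 3 peaks under DMSO, against 1 and 2 under I-BET151. End to end, the peaks ran 88494096 to 88500958 and 88493992 to 88500929 under DMSO, against 88493837 to 88501001 and 88493950 to 88500989 under I-BET151. Much of the difference therefore lay in gaps between peaks. The summit heights overlapped (37.6 and 34.4 against 37.5 and 42.2 RPM). The next wide region, at 52033 bp, overlapped in length, and it was 5023 and 4794 bp under DMSO, against 5131 and 4856 bp under I-BET151. It held the highest ZFPM1 fold, 13.5 in I-BET151 replicate 2, but its summits lay up to 1482 bp apart between libraries. Further on, 4 neighbouring regions between 55702 and 62356 bp all had more covered length, and higher summits in RPM, in both I-BET151 libraries.

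The clearest of these 4 ZFPM1 regions, at 60952 bp, had summit heights of 14.8 and 12.7 RPM under DMSO, against 21.7 and 24.1 under I-BET151, a difference of means of 0.73 on the log2 scale. It was 435 and 547 bp long under DMSO, against 593 and 718 bp under I-BET151. The region at 59757 bp had 27.6 and 24.1 RPM under DMSO, against 31.2 and 38.6 under I-BET151. In the region at 55702 bp, peaks covered 2425 and 2339 bp under DMSO, against 3041 and 3038 bp under I-BET151. Each DMSO library listed 2 peaks there, while each I-BET151 library listed 1 peak that also spanned the gap. End to end, the peaks ran 88508406 to 88511348 and 88508413 to 88511372 under DMSO, against 88508395 to 88511435 and 88508404 to 88511441 under I-BET151. Most of the difference in covered length therefore lay in that gap. At 62356 bp the lengths were 672 and 581 bp against 950 and 963 bp. The region next to it, at 63090 bp, had a peak in I-BET151 libraries only (265 and 268 bp, fold 5.02 and 5.37), and its summit held the other GATA motif. The region nearest the promoter ran the other way in summit height and covered length, but not in fold. At 35906 bp the summit held 38.3 and 38.0 RPM under DMSO, against 31.5 and 33.2 under I-BET151. The covered length was 2592 and 2425 bp against 2197 and 2356 bp, as 1 peak in DMSO replicate 1 and 2 peaks in each other library. Its folds overlapped, with 6.91 and 7.93 under DMSO, against 5.36 and 11.2 under I-BET151.

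**Figure D2:**
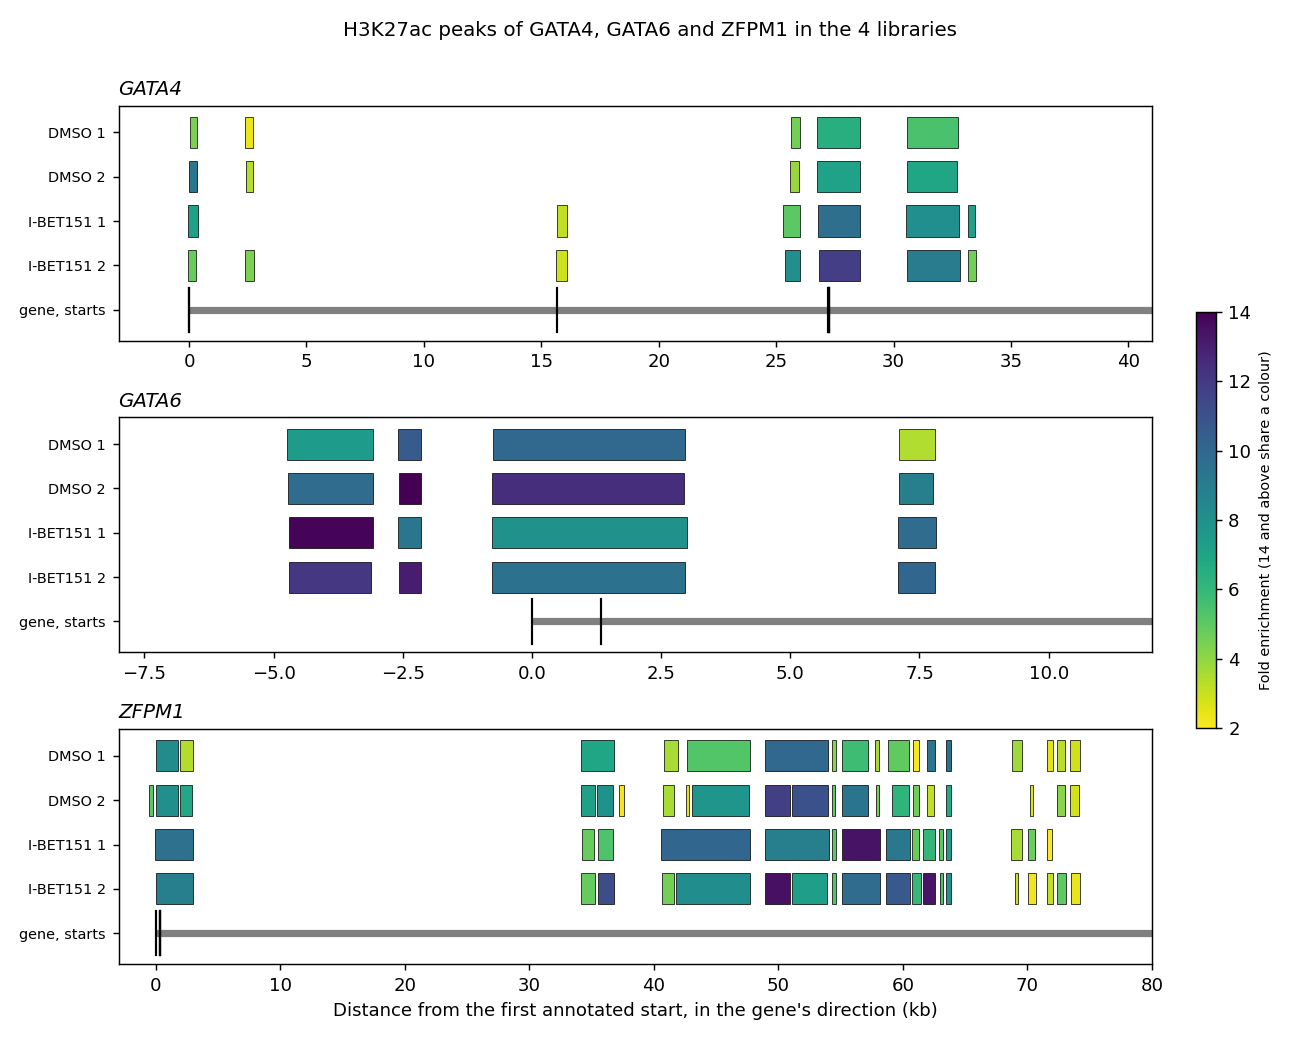
Peaks of GATA4, GATA6 and ZFPM1 by distance from the first annotated start (kb, x axis), with 1 row for each of the 4 libraries, coloured by fold enrichment; the grey line is the gene and black ticks are annotated starts. GATA6 has the same 4 blocks in every row, GATA4 has 2 blocks in the I-BET151 rows only, and the ZFPM1 cluster lies between 35906 and 73997 bp from the start.

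GATA2, GATA3 and GATA5 had shorter acetylated stretches under I-BET151. Together the 3 windows held all 4 regions of the family listed in both DMSO libraries but not under I-BET151. Such lost regions made up 9.09% of the 44 regions, close to the 8.60% of all regions of the genome. The 3 regions with peaks in both I-BET151 libraries only, 2 at GATA4 and 1 at ZFPM1, made up 6.82%, against 2.81% of all regions.

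GATA5, a relative of GATA4 and GATA6, had its acetylation mostly upstream of the gene. It lies on the minus strand of chromosome 20 (62463497 to 62475995). Peaks covered 2.61 and 2.63 kb under DMSO, against 0.323 and 0 kb under I-BET151. The means were 2.62 ± 0.0141 kb and 0.162 ± 0.228 kb (SD, n = 2 each), a difference of −2.46 kb. The 1 peak under I-BET151 was in replicate 1.

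In DMSO, a group of peaks lay between 9656 and 13526 bp before the GATA5 start. The region 9656 bp upstream was 1660 and 1566 bp long, with 16.0 and 15.1 RPM and folds of 5.75 and 7.55, and neither I-BET151 library listed it. The region 11294 bp upstream was listed in 3 libraries, with 13.4 and 11.5 RPM under DMSO, against 8.64 in I-BET151 replicate 1, and it had the highest GATA5 fold, 9.21 in DMSO replicate 2. The region 13526 bp upstream was short (273 and 324 bp), had folds of 5.67 and 7.29 under DMSO and was not listed under I-BET151. A further region 11855 bp upstream was listed in DMSO replicate 1 only (272 bp). The GATA5 start itself had a peak in DMSO replicate 2 only, 353 bp long with a fold of 3.05. The printed summits at 9656 and 13526 bp were low in CpG.

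GATA3, a factor of T cells, trophoblast and epithelia, had 1 wide region of low fold. It lies on the plus strand of chromosome 10 (8045378 to 8075198). The region was 2552 and 2112 bp long under DMSO and was listed in neither I-BET151 library, so the means were 2.33 ± 0.311 kb and 0 kb (SD, n = 2 each). It lay in an intron of the longest gene model, 3115 bp before the nearest of the 5 annotated GATA3 starts, and held the start of a lncRNA gene annotated on the same strand. Its folds were 2.96 and 2.90 under DMSO, and its summits held 21.1 and 18.7 RPM over input levels of 21 and 18 reads. None of the GATA3 starts lay in a peak or within 1 kb of one in any library.

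GATA2, a factor of blood stem cells and neurons, had 2 regions inside the gene, which lies on the minus strand of chromosome 3 (128479427 to 128493201). Peaks covered 1.88 and 1.41 kb under DMSO, against 0.265 and 0.375 kb under I-BET151. The means were 1.65 ± 0.332 kb and 0.320 ± 0.0778 kb (SD, n = 2 each), a difference of −1.33 kb. The region 4699 bp into the gene, which held 1 of the 10 annotated GATA2 starts, was 637 bp long in each DMSO library and was not listed under I-BET151. The region at 3820 bp held another GATA2 start and the start of the antisense lncRNA gene GATA2-AS1. It was listed in all 4 libraries, but was 1245 and 776 bp long under DMSO, against 265 and 375 bp under I-BET151. Its summit height was 24.4 and 23.7 RPM under DMSO, against 10.6 and 12.6 under I-BET151, a difference of means of −1.05 on the log2 scale. Its fold was 4.20 and 3.86 under DMSO, against 2.36 and 3.64 under I-BET151. In summit height, this was the lowest ratio of the 23 regions that could be compared.

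**Figure D3:**
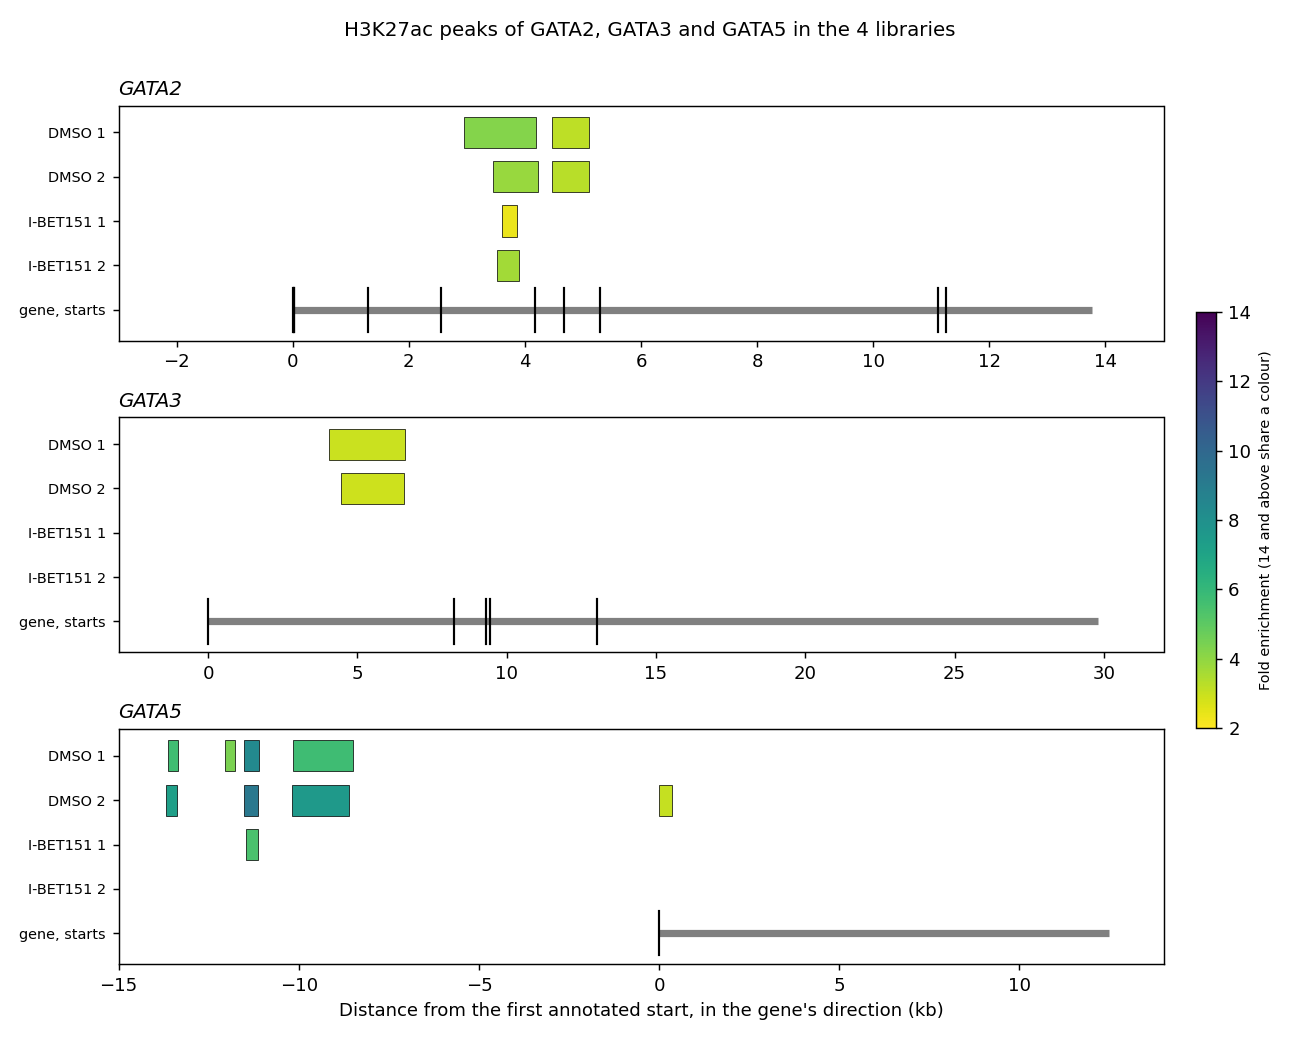
Peaks of GATA2, GATA3 and GATA5 by distance from the first annotated start in the direction of the gene (kb, x axis), with 1 row for each of the 4 libraries, coloured by fold enrichment; the grey line is the gene and black ticks are annotated starts. The GATA3 block and most GATA5 blocks appear in the DMSO rows only, and the GATA2 rows for I-BET151 hold 1 short block.

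A region missing from a list need not be free of acetylation, since a summit must reach a minimum height to be listed. At the input level of the libraries with a peak, the fewest reads that would have passed the lowest −log10 p of each list were worked out. For GATA3 this was 12.6 and 13.2 RPM in the I-BET151 libraries, against a mean of 19.9 under DMSO, so the DMSO mean was 1.58 and 1.51 times the limit. For the GATA2 region at 4699 bp these limits were 8.90 and 9.46 RPM against a mean of 13.9. The limits were lower where the input was low. For the GATA5 region 9656 bp upstream they were 5.67 and 6.10 against 15.5, and for that 13526 bp upstream 4.64 and 4.98 against 10.7. For the 2 GATA4 regions listed under I-BET151 only, the limits under DMSO were 9.92 and 10.1 RPM against a mean of 15.1 at the second start, and 6.28 and 6.61 against 15.4 at 33304 bp. For the ZFPM1 region they were 4.65 and 4.57 against 8.98. Wide margins also occurred between replicates of the same treatment. The region 400 bp before the first ZFPM1 start had 22.7 RPM in DMSO replicate 2. DMSO replicate 1 did not list it, although its limit was 8.92. The GATA5 region 11294 bp upstream had 8.64 RPM in I-BET151 replicate 1. I-BET151 replicate 2 did not list it, although its limit was 4.23. The limits assume the same relative input in both treatments and do not cover the minimum length of a peak.

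ZFPM2, the gene of FOG2, which is best known from heart and gonad, had no listed peak inside the gene at this depth. It spans 104590733 to 105804539 on chromosome 8 and has 10 annotated starts, none of which lay in a peak or within 1 kb of one. The only region of its window was at the promoter of LRP12, which faces away from ZFPM2. The summit of this region lay at −1592 bp relative to the first ZFPM2 start, and whether it also serves ZFPM2 was not tested. It was 898 and 738 bp long under DMSO, against 1051 and 1017 bp under I-BET151, and its summit height was 26.8 and 25.9 against 29.8 and 32.3 RPM. The covered lengths of its window, 0.818 ± 0.113 kb under DMSO, against 1.03 ± 0.0240 kb under I-BET151 (SD, n = 2 each), therefore come from the start of LRP12.

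Among regions with a peak in all 4 libraries, those in the 7 windows were more often higher under I-BET151 than lower. Summit RPM were higher in both I-BET151 libraries at 15 of 23 regions and lower at 2, against 29.8% and 31.0% of the 9422 such regions of the genome. Fold was higher at 12 of 26 and lower at 2, against 25.4% and 16.3% of 10317 regions. Length, summed over the peaks of a region, was greater at 11 of 26 and smaller at 3, against 16.0% and 33.3%. The median log2 ratio of I-BET151 to DMSO was 0.21 in summit height (0.0016 over all regions), 0.19 in fold (0.08 over all regions) and 0.03 in length (−0.04 over all regions). The 15 regions with higher summits lay in 4 windows, 6 in that of GATA4, 5 in that of ZFPM1, 3 in that of GATA6 and the LRP12 promoter. The 3 of GATA6 include its promoter, where the summits lay at different positions and the fold was lower under I-BET151. The ratio at that promoter is also the median of 0.21. Of the 6 in the GATA4 window, 4 lay in NEIL2 or FDFT1. Regions of 1 gene share their surroundings and are not independent.

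**Figure D4:**
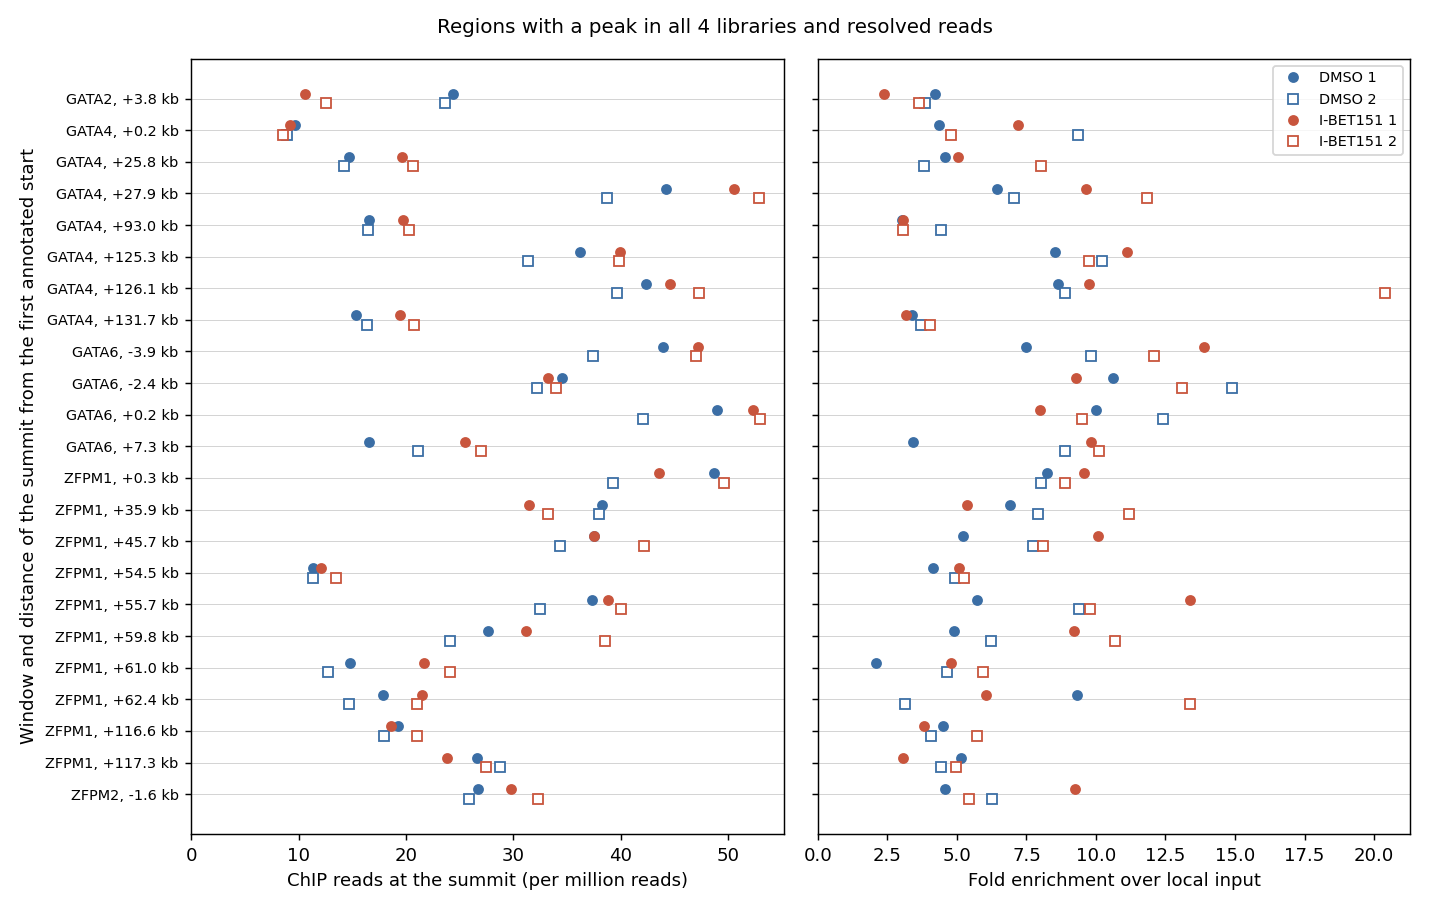
Summit height in RPM (left) and fold enrichment over the local input (right) for the 23 regions of the 7 windows with peaks and resolved reads in all 4 libraries, blue for DMSO and red for I-BET151, filled circles for replicate 1 and open squares for replicate 2. The GATA2 region is lower in both I-BET151 libraries, and the DMSO replicates lie closer together in reads than in fold at 20 of 23 regions.

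Finally, 29 genes that work with GATA and FOG proteins or share their zinc finger were described in the same way. Of the 23 with a peak in their window, 2 had more covered length in both I-BET151 libraries and 8 had less, where 12.5% and 44.4% of all genes did. All lengths here are totals of the window, and peaks of neighbouring genes were not separated from those of the partner. The GATA1 window, for example, had 0.95 kb in DMSO replicate 1, although no library had a peak within 1 kb of a GATA1 start. Among the 6 other GATA-type zinc finger genes, GATAD1, GATAD2B and ZGLP1 had less and none had more. The 12 NuRD and CtBP corepressors all had a peak, 5 had less (CHD4, HDAC1, MTA1, MTA2 and MBD3) and CTBP2, which encodes a corepressor that FOG proteins bind, had more. CTBP2 had 3.61 and 3.55 kb under DMSO, against 4.07 and 4.02 kb under I-BET151. The window of MTA2, a subunit of NuRD, had 7.11 and 6.97 kb under DMSO, against 3.93 and 4.16 kb under I-BET151. Of the 11 factors and coactivators, 6 had a peak, SMAD4 had slightly more (1.13 and 1.12 against 1.16 and 1.14 kb) and none had less. NR2F2 overlapped, with 5.88 and 5.16 kb under DMSO, against 7.29 and 5.86 kb under I-BET151. Its window held the only region of the 29 windows listed in both I-BET151 libraries and in no DMSO library. LMO2, TAL1, NKX2-5, TBX5 and HAND2, which work with GATA factors in blood or heart, had no peak in any library. The CTBP2, MTA2, SMAD4, NR2F2 and GATA1 values were named after all were seen.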

How the data were processed

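H3K27ac ChIP-seq peak lists of 2 DMSO and 2 I-BET151 libraries were used, grouped by their titles; the 4 input libraries were not analysed here as samples. Before deposit, the authors had aligned their paired-end reads with Bowtie2 2.2.5 (hg38), removed duplicates and mitochondrial reads, and called peaks with MACS2 2.1.2 at default settings, separately per library. The deposited columns used are the interval and summit, the fold enrichment as a ratio over local background, and the −log10 p-value and −log10 q-value that MACS2 gave. The deposited score was not used. Duplicate removal limits how high a summit can be, and the q-value threshold leaves out weak acetylation.

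The 7 members, the marker and partner lists and the tests were chosen with earlier results of these data known. One listed marker is not reported here. Peaks sharing at least 1 bp were merged over the libraries into regions, each assigned to a window (gene body and 50 kb on either side, GENCODE 44). A gained region was listed in every I-BET151 library but no DMSO library, and a lost region the reverse. Covered length was compared by exact permutation of the library labels (two-sided, 6 assignments). Fold and −log10 p together fix the ChIP reads and the input level at a summit (pseudocount of 1), and 97.1 to 97.7% of peaks had a single solution. ChIP and input depths followed with the genome size of 2.7e+09 bp that MACS2 assumes, and were 7.76 to 9.84 and 2.67 to 3.04 M (mega) reads. Named were, per member, regions with a start, gained and lost regions, the highest fold and up to 3 other regions that separated the treatments; further ZFPM1 regions were named after their values were seen. The build was checked by position, since a protein-coding start lay within 3 kb of 82.1 to 85.9% of summits, against 17.3 to 18.0% after a shift of 1 Mb. Scripts (Python 3.11.15, pandas 2.3.3, scipy 1.17.1) were tested on simulated peaks.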

Additional observations from a re-analysis of the deposited data

How the results depend on the processing

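With 2 libraries per treatment the exact permutation test could not pass 0.05, and depth and input noise limit which weak regions were listed. Of 101 alternative values for 10 results, 92 kept their direction or, for counts, stayed within 1.5 times. Part of these could not come out otherwise, so the tally does not measure robustness. Where the libraries of the treatments do not overlap in length, leaving out a library cannot change the direction. The replicate block leaves every length difference and count unchanged by construction. The GATA6 difference, 0.025 kb, reversed without DMSO replicate 2 (−0.0275 kb) and without I-BET151 replicate 1 (−0.0405 kb); over the 4 settings that left out a library it ran from −0.0405 to 0.0905 kb. The ZFPM2 difference of 0.216 kb became 0 without peaks at starts of other genes, since its only peak is at LRP12. The 3 gained regions became 5 with equally long lists of top-ranked peaks and 1 when peaks within 500 bp were merged, and numbered 3 to 5 when a library was left out (5 without DMSO replicate 1). The 4 lost regions became 8 with 100 kb on either side, and numbered 5 to 7 when a library was left out (7 without DMSO replicate 1 and 7 without I-BET151 replicate 2). With 100 kb the GATA5 difference was −7.16 kb in place of −2.46 kb, and with equally long lists the ZFPM1 difference was 5.35 kb in place of 2.68 kb. The median log2 fold ratio was 0.16 to 0.44 in every alternative tried. Replicate numbers shared by the treatments correlated at 0.11 over gene windows for 2 pairs, and nothing in the labels pairs them. With the replicate block every difference and count necessarily had the value it had without (GATA2 −1.33, GATA3 −2.33, GATA4 1.15, GATA5 −2.46, GATA6 0.025, ZFPM1 2.68 and ZFPM2 0.216 kb, 3 gained, 4 lost). The median log2 fold ratio, which could differ, was 0.19.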
